A study of Mus musculus with 6 samples.

Results

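The core circadian clock genes examined here are Arntl, Npas2, Cry1, Nfil3, Dbp, Nr1d1, Nr1d2, Per1, Per2 and Per3, each found in the deposited gene table by an exact match of its symbol. They are 10 of the 54012 genes in the table, and all 10 were among the 13458 genes that were tested because they averaged 1 TPM or more. TPM is a transcript abundance that is corrected for gene length and brought to one total per library. The first 4 of them are described below as activator-phase genes, since their transcripts are known to peak together in mouse tissues, and the other 6 as repressor-phase genes. RNA sequencing was done on small intestine of 3 mice labelled TLR4ΔIEC and 3 mice labelled wild type (WT), all 8 to 12 weeks old. By its title, the series asks what loss of TLR4 from the intestine does to gene expression there. TLR4 senses lipopolysaccharide of bacteria. The labels name no Cre driver, strain or sex and no stretch of the small intestine, and they give 1 collection date for the 6 mice with no hour of the day. The clock genes change through the day, and whether the hour of collection differed between the genotypes is not given.

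The circadian clock is a feedback loop of transcription factors that runs in most cells. BMAL1, encoded by Arntl, pairs with CLOCK or its relative NPAS2, binds E-boxes and activates the Per and Cry genes, Nr1d1, Nr1d2 and Dbp, and the PER and CRY proteins in turn repress BMAL1. The nuclear receptors REV-ERB alpha and beta, encoded by Nr1d1 and Nr1d2, bind RORE sites and repress Arntl, Npas2, Cry1 and Nfil3, while DBP activates and NFIL3 represses genes with D-boxes, among them the Per genes. In mouse intestine the clock drives daily rhythms of nutrient absorption, and Nfil3 in the epithelium is known to be set by REV-ERB alpha and to promote lipid uptake.

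The promoters below are shown because these 3 kinds of site connect the members to each other. RefSeq promoter windows of 300 bases (250 before and 50 after a transcript start, GRCm38.p6) were found for 9 of the 10 members, 11 windows in all. Capitals mark the motifs searched on both strands, which are the E-box CACGTG, its variant CACGTT, the RORE core TAGGTCA and the D-box TTATGTAA or TTATGCAA. A match on the minus strand of the gene appears as its reverse complement, and no 2 matches in these windows overlapped.
Arntl, chr7:113207261-113207560, plus strand: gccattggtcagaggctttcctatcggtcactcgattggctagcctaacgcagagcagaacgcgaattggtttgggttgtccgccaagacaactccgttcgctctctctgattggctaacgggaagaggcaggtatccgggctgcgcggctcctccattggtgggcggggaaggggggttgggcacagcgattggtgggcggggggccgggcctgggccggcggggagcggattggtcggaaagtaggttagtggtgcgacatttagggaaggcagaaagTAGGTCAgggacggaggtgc
Nfil3, chr13:52980990-52981289, minus strand: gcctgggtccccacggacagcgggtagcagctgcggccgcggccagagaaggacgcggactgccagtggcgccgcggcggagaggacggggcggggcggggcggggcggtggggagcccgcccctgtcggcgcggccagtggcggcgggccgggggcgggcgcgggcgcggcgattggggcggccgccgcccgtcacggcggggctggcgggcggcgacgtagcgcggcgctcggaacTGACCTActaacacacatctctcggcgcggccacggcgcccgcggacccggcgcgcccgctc
Cry1, chr10:85185005-85185304, minus strand: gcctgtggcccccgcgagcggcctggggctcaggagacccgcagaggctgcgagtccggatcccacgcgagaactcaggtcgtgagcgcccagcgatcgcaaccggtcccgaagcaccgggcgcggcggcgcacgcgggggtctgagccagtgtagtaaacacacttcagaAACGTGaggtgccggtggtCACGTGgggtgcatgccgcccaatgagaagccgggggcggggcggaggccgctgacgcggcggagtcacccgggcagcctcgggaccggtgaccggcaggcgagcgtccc
Per1, chr11:69098699-69098998, plus strand: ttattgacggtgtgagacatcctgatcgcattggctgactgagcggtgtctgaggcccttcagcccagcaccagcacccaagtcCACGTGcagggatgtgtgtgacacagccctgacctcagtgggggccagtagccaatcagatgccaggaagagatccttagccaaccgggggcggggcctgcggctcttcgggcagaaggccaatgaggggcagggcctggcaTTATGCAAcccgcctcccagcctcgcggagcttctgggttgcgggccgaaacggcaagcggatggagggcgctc
Per3, chr4:151044616-151044915, minus strand: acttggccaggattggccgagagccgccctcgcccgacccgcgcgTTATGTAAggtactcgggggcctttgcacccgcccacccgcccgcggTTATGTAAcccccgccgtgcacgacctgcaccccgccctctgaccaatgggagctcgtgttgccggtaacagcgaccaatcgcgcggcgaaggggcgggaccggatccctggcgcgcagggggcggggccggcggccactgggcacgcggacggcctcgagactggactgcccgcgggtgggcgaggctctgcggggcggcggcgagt

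The second Arntl window and the Nfil3 window each held the RORE core, on the minus strand of the gene in Nfil3. That core was in 2.61% of the 32851 windows of the table. Cry1 and the upstream Per1 window each held the E-box, which 7.15% of all windows held. Cry1 and Nr1d1 held the variant CACGTT, present in 4.68% of windows. Per3 held the D-box at 2 places and Per1 at 1 place, and 1.66% of windows had one. The windows of Npas2, Dbp and Nr1d2, the first Arntl window and the second Per1 window held none of these letters. They are not printed above, nor is the Nr1d1 window, so every printed window holds a match. A match is a string of letters and not a shown binding site.

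Before the results, the libraries were checked. Log2 values of the tested genes correlated at 0.939 to 0.977 within a genotype and at 0.920 to 0.948 between genotypes. TLR4ΔIEC replicate 2 stood apart, with 12221 genes reaching 1 TPM, while the other 5 libraries had 13197 to 13634. Tlr4 itself was measured at 1.29, 1.22 and 4.81 TPM in libraries labelled TLR4ΔIEC, against 0.65, 0.57 and 0.70 TPM in the WT libraries. Every value in libraries labelled TLR4ΔIEC thus lay above every WT value, as in 24.1% of all tested genes. The log2 fold change of Tlr4 was 0.92 (limma adjusted p = 0.243). The table therefore shows no loss of Tlr4 transcript, its values lie in the other direction, and it cannot check the genotype labels. All directions below are for libraries labelled TLR4ΔIEC. Epithelial markers such as Epcam and Vil1 were abundant in all 6 libraries, and the labelled tissue was not epithelium alone, since smooth muscle, fibroblast and leukocyte markers were present too. Over all tested genes the fold changes had a median of 0.16 on the log2 scale, and a median of 0.03, 0.02, 0.01 and −0.12 under 4 other scalings, so that a member's value is to be read against that shift. Alpha-defensin genes held 18.4%, 5.21% and 6.61% of the TPM in libraries labelled TLR4ΔIEC, against 26.5%, 25.3% and 28.7% in WT libraries. Their part in that shift was not tested. Depth is unknown, because TPM keeps no read totals.

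The activator-phase genes stood higher and Dbp stood lower in the libraries labelled TLR4ΔIEC, by 2.05-fold to 3.98-fold of the group means, while the Per genes and both REV-ERB genes had overlapping values. No member passed an adjusted p of 0.05 in limma, a threshold that 0.119% of all tested genes passed (0.0446% as higher and 0.0743% as lower). Those were 6 higher and 10 lower genes, against 3 and 15 under median-of-ratios scaling, 4 and 14 under quantile normalization, 3 and 8 without the 20 highest genes, and 1 and 9 without alpha-defensin, mitochondrial and similar genes. At an unadjusted p under 0.05 limma gave 7 of the 10 members. Of these 4 were higher, where 18.4% of all tested genes were, and 3 were lower, where 2.77% were. Under the 4 other scalings 4 members were higher and 3 or 4 lower at that p, while the share of all tested genes was 4.50% to 9.43% higher and 4.19% to 7.29% lower. The 3 values of one genotype all lay apart from those of the other in 5 members, 4 higher and 1 lower, where 24.1% of tested genes were apart and higher and 3.53% apart and lower (27.6% in either direction). The members were chosen with results of these data in view, so these counts are a description. The smallest p that an exact two-sided permutation test can give with 3 against 3 is 0.1, which the 5 apart members had. The exact permutation p was 0.2 for Nr1d1 and Per1, 0.3 for Nr1d2, 0.4 for Per3 and 0.9 for Per2.

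**Figure D1:**
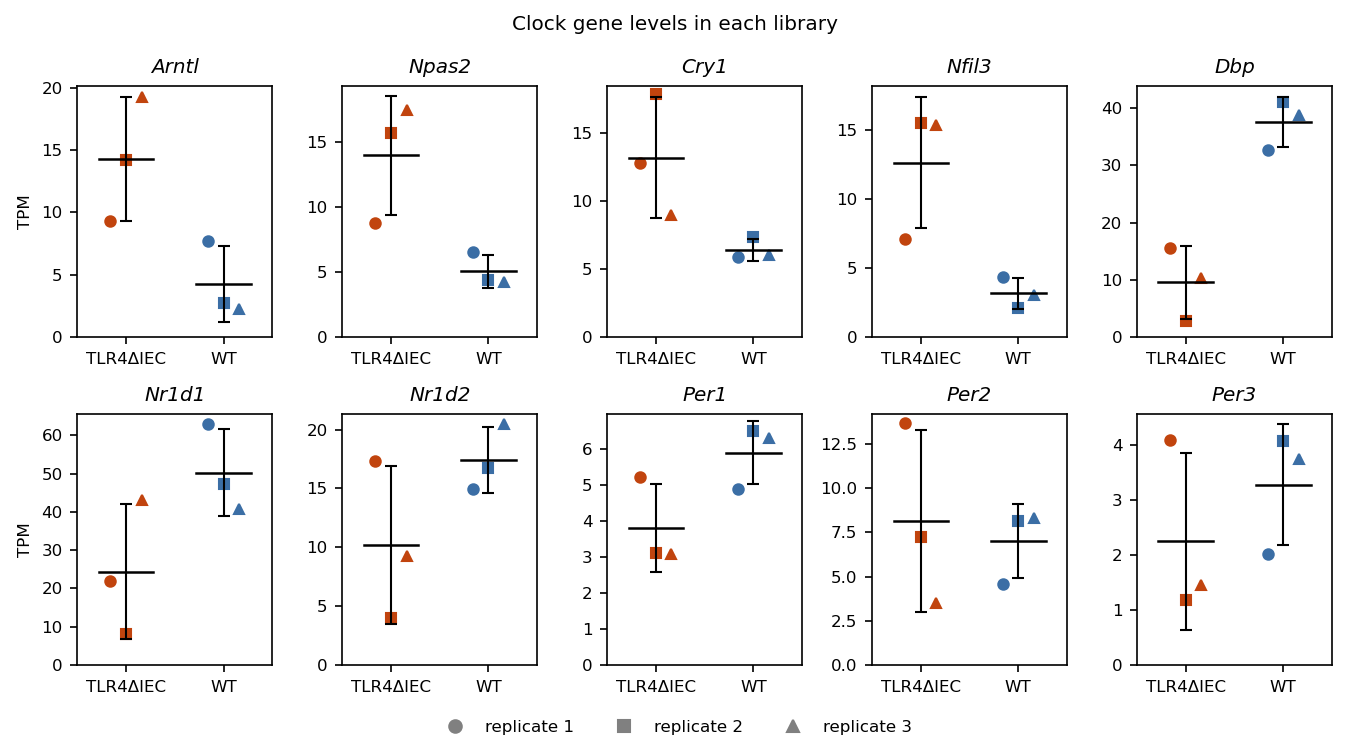
Level of each clock gene in TPM (vertical axes, from 0) in the 3 libraries labelled TLR4ΔIEC (left of each panel) and the 3 WT libraries (right), with the mean and SD as a bar; symbols mark the replicate number. Arntl, Npas2, Cry1 and Nfil3 have every TLR4ΔIEC point above every WT point, Dbp has every one below, and the other 5 genes overlap.

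Arntl (ENSMUSG00000055116, chromosome 7, 113207465 to 113314126, plus strand, GRCm38), which encodes BMAL1, stood at 9.32, 14.23 and 19.23 TPM in libraries labelled TLR4ΔIEC, against 7.74, 2.71 and 2.26 TPM in WT libraries. The groups did not overlap, but WT replicate 1 lay close below TLR4ΔIEC replicate 1 and far above the other 2 WT libraries. The means were 14.3 ± 4.96 TPM in TLR4ΔIEC and 4.24 ± 3.04 TPM in WT (SD, n = 3 each), a 3.37-fold difference. The log2 fold change was 1.64 (95% interval 0.65 to 2.62, SE 0.42, limma adjusted p = 0.113).

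Npas2 (ENSMUSG00000026077, chromosome 1, 39193731 to 39363236, plus strand), which encodes the alternative partner of BMAL1, stood at 8.82, 15.72 and 17.52 TPM in libraries labelled TLR4ΔIEC, against 6.56, 4.41 and 4.26 TPM in WT libraries. Its library order resembled that of Arntl, with TLR4ΔIEC replicate 1 the lowest of its group and WT replicate 1 the highest of its own. The means differed 2.76-fold, and the log2 fold change was 1.27 (95% interval 0.61 to 1.93, SE 0.28, limma adjusted p = 0.0983).

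Cry1 (ENSMUSG00000020038, chromosome 10, 85131700 to 85185064, minus strand) encodes a repressor of BMAL1 whose transcript is known to peak late, near that of Arntl. It stood at 12.78, 17.82 and 8.94 TPM in libraries labelled TLR4ΔIEC, against 5.91, 7.33 and 6.01 TPM in WT libraries. Here TLR4ΔIEC replicate 3 was the lowest of its group, although it was the highest for Arntl, and the WT libraries lay close together. The means differed 2.05-fold, with a log2 fold change of 0.89 (95% interval 0.31 to 1.47, SE 0.25, limma adjusted p = 0.122).

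Nfil3 and Dbp compete for D-boxes, and in both genes the genotypes were apart, in opposite directions. Nfil3 (ENSMUSG00000056749, chromosome 13, 52967209 to 52981073, minus strand), the repressor, stood at 7.15, 15.50 and 15.36 TPM in libraries labelled TLR4ΔIEC, against 4.35, 2.14 and 3.05 TPM in WT libraries. Its means differed 3.98-fold, and it had the smallest p of the 10 members, with a log2 fold change of 1.67 (95% interval 0.89 to 2.46, SE 0.33, limma adjusted p = 0.0940). By that p it ranked 205th of the 13458 tested genes. Dbp (ENSMUSG00000059824, chromosome 7, 45705088 to 45710203, plus strand), the activator, stood at 15.59, 2.89 and 10.27 TPM in libraries labelled TLR4ΔIEC, against 32.68, 41.11 and 38.82 TPM in WT libraries. The WT values lay within 1.26-fold of each other, while the TLR4ΔIEC values spanned 5.39-fold, with replicate 2 the lowest. The TLR4ΔIEC mean was 3.92-fold lower than the WT mean, with a log2 fold change of −2.09 (95% interval −3.25 to −0.94, SE 0.49, limma adjusted p = 0.106). Dbp shares 539 of its 2993 annotated exonic bases with Sphk2 on the opposite strand, and the sources used here do not say whether reads were counted by strand. Sphk2 stood at 25.23 to 33.97 TPM in libraries labelled TLR4ΔIEC and at 23.55 to 29.58 TPM in WT libraries, which overlap.

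Among the REV-ERB genes, Nr1d1 (ENSMUSG00000020889, chromosome 11, 98767932 to 98775333, minus strand) stood at 21.91, 7.97 and 43.03 TPM in libraries labelled TLR4ΔIEC, against 62.87, 47.31 and 40.77 TPM in WT libraries. The groups overlapped, because TLR4ΔIEC replicate 3 lay above WT replicate 3. The log2 fold change was −1.28 (95% interval −2.53 to −0.03, SE 0.53, limma adjusted p = 0.229), and it was −0.67 without TLR4ΔIEC replicate 2. Nr1d1 shares 263 of its 3077 exonic bases with Thra, a thyroid hormone receptor gene on the opposite strand. Thra stood at 29.11, 43.37 and 58.05 TPM in libraries labelled TLR4ΔIEC, against 58.30, 40.86 and 37.92 TPM in WT libraries, with a log2 fold change of −0.10. Thra and Nr1d1 were both highest in replicate 3 among the libraries labelled TLR4ΔIEC and in replicate 1 among the WT libraries, and the part of shared reads in this was not tested. Nr1d2 (ENSMUSG00000021775, chromosome 14, 18204054 to 18239127, minus strand) stood at 17.32, 3.99 and 9.28 TPM in libraries labelled TLR4ΔIEC, against 14.98, 16.70 and 20.49 TPM in WT libraries. Its TLR4ΔIEC replicate 1 lay within the WT range and the other 2 below it, and the log2 fold change was −0.90 (adjusted p = 0.290 in limma, SE 0.44). It was −1.35 without TLR4ΔIEC replicate 1 and −0.41 without TLR4ΔIEC replicate 2.

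The Per genes encode the repressors that act with CRY proteins, and all 3 had overlapping groups. Per1 (ENSMUSG00000020893, chromosome 11, 69095217 to 69109960, plus strand), which hormones and other acute signals can also induce, stood at 5.22, 3.10 and 3.08 TPM in libraries labelled TLR4ΔIEC, against 4.89, 6.49 and 6.28 TPM in WT libraries. Its log2 fold change was −0.54 (adjusted p = 0.231 in limma, SE 0.23). Per2 (ENSMUSG00000055866, chromosome 1, 91415982 to 91459324, minus strand) stood at 13.69, 7.23 and 3.50 TPM in libraries labelled TLR4ΔIEC, against 4.60, 8.15 and 8.33 TPM in WT libraries. TLR4ΔIEC replicates 1 and 3 were the highest and the lowest of all 6 libraries for this gene. The log2 fold change of Per2 was 0.06 with a 95% interval of −0.96 to 1.09, and its sign turned under each of the 4 other scalings (−0.23 to −0.054), without TLR4ΔIEC replicate 1 (−0.36) and without WT replicate 1 (−0.18). Per3 (ENSMUSG00000028957, chromosome 4, 151003652 to 151044665, minus strand), a family member with a weaker part in the loop, stood at 4.10, 1.18 and 1.46 TPM in libraries labelled TLR4ΔIEC, against 2.02, 4.07 and 3.75 TPM in WT libraries. TLR4ΔIEC replicate 1 lay with WT replicates 2 and 3, and the log2 fold change was −0.47 (adjusted p = 0.519 in limma, SE 0.38). It was −0.85 without TLR4ΔIEC replicate 1 and −0.24 without TLR4ΔIEC replicate 2.

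**Figure D2:**
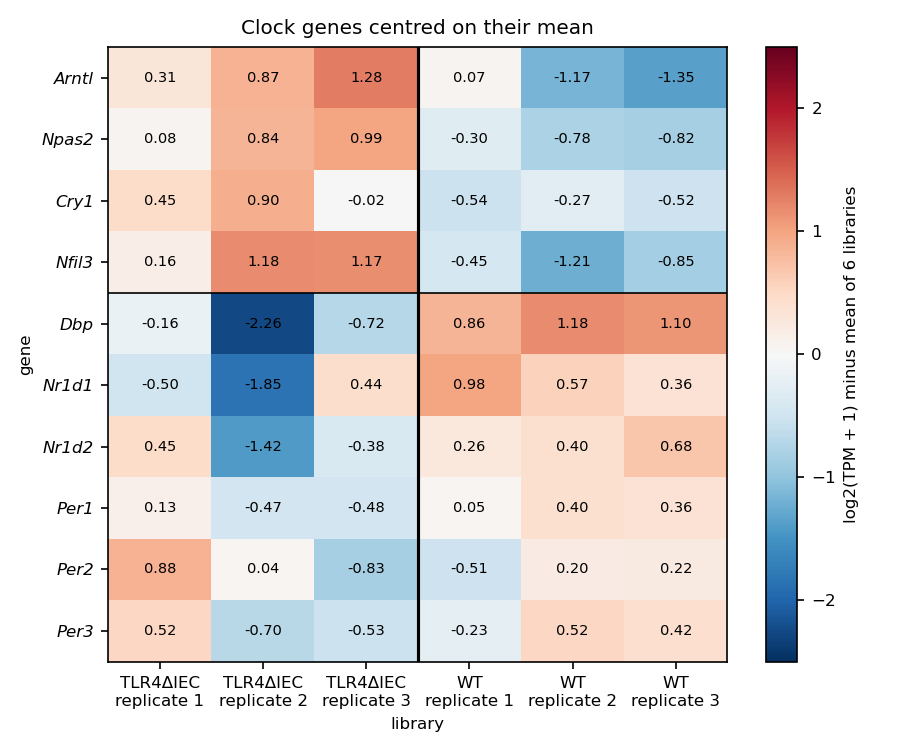
Log2(TPM + 1) of each clock gene (rows) in each library (columns, TLR4ΔIEC left and WT right), minus the mean of the 6 libraries; red is above the mean and blue below. Dbp runs from −2.26 in TLR4ΔIEC replicate 2 to 1.18 in WT replicate 2, and the Per genes in TLR4ΔIEC replicate 1 lie above their means.

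The libraries of one genotype did not share a single clock pattern. TLR4ΔIEC replicate 1 had the highest Per2 and Per3 of all 6 libraries together with the lowest Arntl, Npas2 and Nfil3 of its group. WT replicate 1 had the lowest Per1, Per2 and Per3 of its group together with the highest Arntl, Npas2 and Nfil3. On the centred log2(TPM + 1) scale Arntl stood at 0.31 in TLR4ΔIEC replicate 1 and at 0.07 in WT replicate 1, against 0.87 and 1.28 in TLR4ΔIEC replicates 2 and 3 and −1.17 and −1.35 in WT replicates 2 and 3. Across the 2 genotypes, the replicates numbered 1 thus lay nearest to each other for Arntl. The shared number names no shared animal.

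Ratios between members inside one library do not depend on how that library was scaled. The ratio of Arntl to Dbp was 0.598, 4.92 and 1.87 in libraries labelled TLR4ΔIEC, against 0.237, 0.0659 and 0.0582 in WT libraries. On the log2 scale this ratio averaged 0.82 ± 1.52 in TLR4ΔIEC and −3.37 ± 1.12 in WT (SD, n = 3 each), a difference of 4.19 with no overlap. The log2 ratio of Nfil3 to Dbp averaged 0.63 ± 1.77 in TLR4ΔIEC and −3.61 ± 0.68 in WT, also without overlap. Every Arntl and Nfil3 value was higher and every Dbp value lower in TLR4ΔIEC, so neither ratio to Dbp could overlap. The log2 ratio of Arntl to Nr1d1 averaged −0.52 ± 1.17 in TLR4ΔIEC and −3.77 ± 0.65 in WT, again without overlap. The 3 ratios with a Per gene below the line overlapped between the genotypes. That of Arntl to Per2 was 0.681, 1.97 and 5.49 in libraries labelled TLR4ΔIEC, against 1.68, 0.333 and 0.271 in WT libraries, and that of Npas2 to Per3 was 2.15 in TLR4ΔIEC replicate 1, below the 3.25 of WT replicate 1. The ratios are a description and were not tested.

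**Figure D3:**
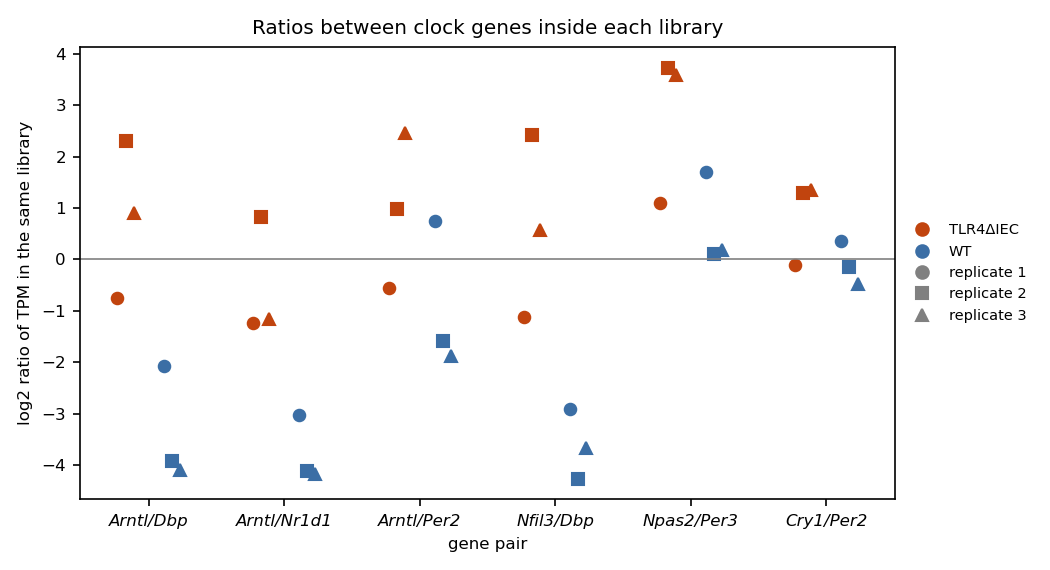
Log2 ratio of the TPM of 2 clock genes in the same library (vertical axis) for 6 gene pairs, TLR4ΔIEC in red to the left and WT in blue to the right; symbols mark the replicate number. The groups are apart for Arntl/Dbp, Arntl/Nr1d1 and Nfil3/Dbp and overlap for the 3 pairs with Per2 or Per3. For the pairs with Dbp this follows from the values of the single genes.

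The order of the levels differed between the genotypes. In libraries labelled TLR4ΔIEC Nr1d1 had the highest mean (24.3 ± 17.7 TPM), followed by Arntl, Npas2, Cry1 and Nfil3 (12.7 to 14.3 TPM), then Nr1d2, Dbp and Per2 (8.14 to 10.2 TPM), Per1 and Per3. Each neighbouring pair in that order overlapped in its values. In WT libraries Nr1d1 (50.3 ± 11.4 TPM) and Dbp (37.5 ± 4.36 TPM) led with overlapping values. Nr1d2 followed at 17.4 ± 2.82 TPM, apart from both Dbp above it and Per2 below it. The other 7 members had WT means of 3.18 to 7.03 TPM, each overlapping its neighbour, with Nfil3 the lowest.

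The other transcription factors of the loops were read from a list of 11 genes, of which 6 reached the filter. No gene of the list passed the adjusted threshold, and at an unadjusted p under 0.05 limma gave Tef alone, as lower, 1 of 6 where 21.2% of all tested genes lay under that p in either direction. The median log2 fold change over this list was −0.03, beside 0.16 for all tested genes. Tef, a PAR-domain factor related to DBP, stood at 25.62, 10.47 and 11.17 TPM in libraries labelled TLR4ΔIEC, against 22.09, 28.68 and 28.48 TPM in WT libraries, with a log2 fold change of −0.81 (adjusted p = 0.220 in limma, SE 0.33). TLR4ΔIEC replicate 1 again lay with the WT libraries. Bhlhe40, which encodes the E-box repressor DEC1, stood at 40.66, 46.90 and 27.02 TPM in libraries labelled TLR4ΔIEC, against 22.01, 31.90 and 30.15 TPM in WT libraries. The groups overlapped, and its log2 fold change was 0.42 (adjusted p = 0.369 in limma, SE 0.24). Hlf, the remaining PAR-domain factor, was below the filter at 0.67, 0.07 and 0.41 TPM in libraries labelled TLR4ΔIEC, against 1.34, 1.62 and 1.57 TPM in WT libraries, and was not tested. Clock, the main partner of BMAL1, had a log2 fold change of −0.01 with a 95% interval of −0.59 to 0.57, and Cry2 one of 0.25 with an interval of −0.34 to 0.84. Ciart, a repressor of BMAL1 activity, stood at 2.05, 1.31 and 1.02 TPM in libraries labelled TLR4ΔIEC, against 1.34, 5.78 and 5.67 TPM in WT libraries, where WT replicate 1 lay within the TLR4ΔIEC range. Hlf, Clock, Cry2 and Ciart were chosen after their values were seen.

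**Figure D4:**
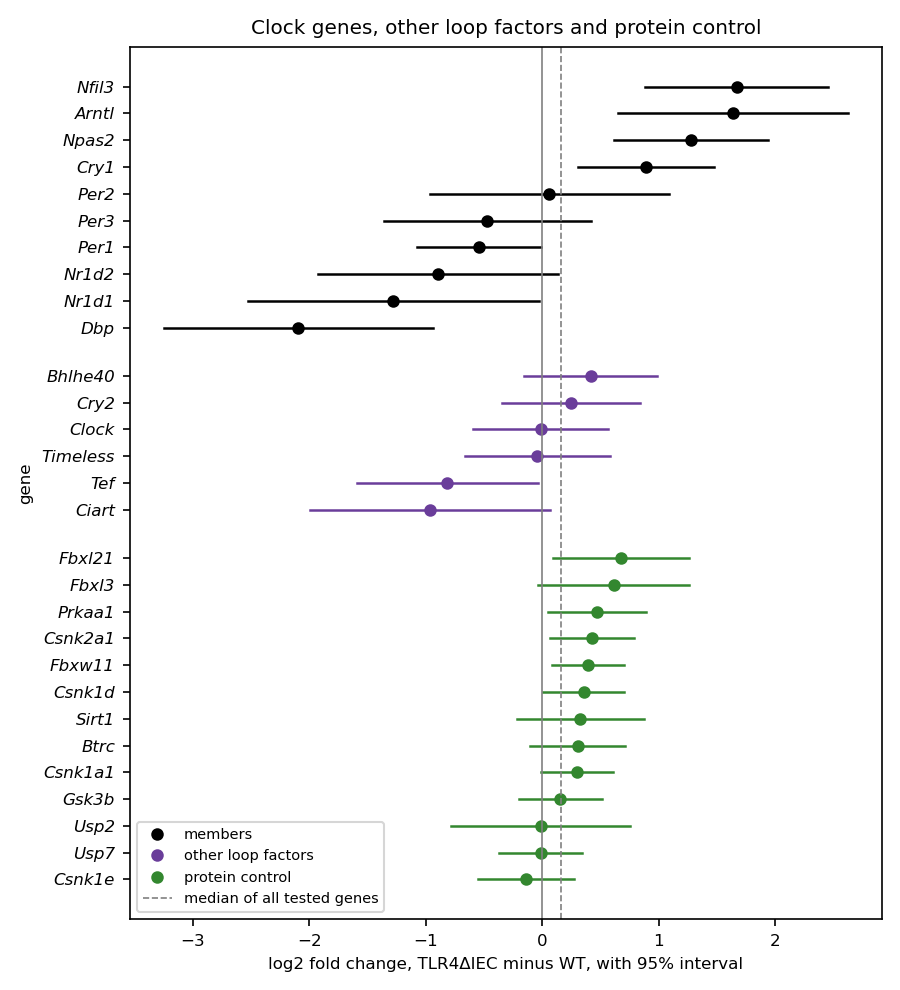
Log2 fold change, TLR4ΔIEC minus WT, on the log2(TPM + 1) scale (horizontal axis) with its 95% interval from limma for the 10 members (black), the 6 other loop factors tested (purple) and the 13 genes of protein control (green); the dashed line is the median of all tested genes, 0.16. The intervals of Nfil3, Arntl, Npas2, Cry1, Fbxl21, Prkaa1, Csnk2a1, Fbxw11 and Csnk1d lie above 0. Those of Dbp, Nr1d1, Per1 and Tef lie below it, and the others, among them Clock, Per2 and Cry2, span 0.

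Kinases, ubiquitin ligases and other enzymes that set the life of PER and CRY proteins formed a list of 13 genes, all tested. None passed the adjusted threshold, and 5 had an unadjusted limma p under 0.05, all higher. They were the PER kinases Csnk1d (log2 fold change 0.36) and Csnk2a1 (0.43), the CRY1 kinase Prkaa1 (0.47), and the ligase genes Fbxw11 (0.39) and Fbxl21 (0.68). The median log2 fold change over this list was 0.33, beside 0.16 for all tested genes, and 18.4% of tested genes were higher at that p. Under the 4 other scalings all 5 values lay above 0, but Fbxl21 had such a p in 2 of them and the other 4 genes in none, and Csnk1d came down to 0.037.

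Of 17 genes widely used as clock outputs, 16 were tested, none passed the adjusted threshold and 1 had an unadjusted limma p under 0.05 (6.25%), where 21.2% of all tested genes did. That gene was Klf10, a Krüppel-like factor driven by the clock in mouse liver, at 18.90 to 28.74 TPM in libraries labelled TLR4ΔIEC and 11.68 to 14.54 TPM in WT libraries, with a log2 fold change of 0.78 (limma adjusted p = 0.110). It was named because its unadjusted limma p was under 0.05. The cell cycle inhibitor Cdkn1a and the cold-inducible RNA-binding protein gene Rbm3, the most abundant of the list, had log2 fold changes of 0.49 and −0.11. The list's median was 0.18, close to the 0.16 of all tested genes.

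Absorption genes that are known to vary by time of day in rodent intestine formed a list of 13, all tested. Apoa4, an apolipoprotein of chylomicrons, was the one gene of the list to pass, and it fell to 102.5 ± 13.4 TPM in libraries labelled TLR4ΔIEC, against 628.5 ± 241.5 TPM in WT libraries (log2 fold change −2.55, limma adjusted p = 0.0350). Its call was lost without any one of TLR4ΔIEC replicate 2 or 3 or WT replicate 1, 2 or 3 (adjusted p 0.0518 to 0.130). At an unadjusted p under 0.05, 7 were lower and 3 higher, where 2.77% and 18.4% of all tested genes were. The lower ones besides Apoa4 were the peptide transporter Slc15a1, at 109.5 to 145.9 TPM in libraries labelled TLR4ΔIEC and 188.2 to 234.4 TPM in WT libraries, the sugar transporters Slc2a2, Slc2a5 and Slc5a1, the sodium exchanger Slc9a3 and the efflux pump Abcc2. Slc15a1, a known target of DBP in rats, differed by −0.74 on the log2 scale (adjusted p = 0.0990 in limma, SE 0.16). The higher ones were the bile acid transporter Slc10a2 (1.53), the efflux pump Abcg2 (1.16) and the sterol transporter Npc1l1 (0.49), given as log2 fold changes, of which Npc1l1 had such a p under 1 of the 4 other scalings. Slc10a2 is also 1 of the 7 ileal markers below, 6 of which were apart and higher, while 5 of the 7 proximal markers were apart and lower. The part of position along the intestine in the absorption list was not tested. Of 4 lipid genes linked to NFIL3 in mouse intestinal epithelium, none passed. The fatty acid receptor Cd36 stood at 3.85, 0.44 and 2.17 TPM in libraries labelled TLR4ΔIEC, against 6.06, 5.85 and 3.50 TPM in WT libraries, and the desaturase Scd1 at 9.56, 24.00 and 16.18 TPM in libraries labelled TLR4ΔIEC, against 4.78, 11.48 and 3.58 TPM in WT libraries. Both overlapped between the genotypes, with log2 fold changes of −1.10 and 1.26, and Fabp4 and Cyp2e1, added after their values were seen, had −0.16 and −0.29.

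Signals that can reset or induce clock genes were read from lists of immediate early genes and of genes that glucocorticoids induce or that handle steroids. Of 13 genes of the glucocorticoid list 10 were tested and none passed. At an unadjusted limma p under 0.05 the phosphatase Dusp1 and the glucocorticoid-inactivating enzyme gene Hsd11b2 were higher (log2 fold changes 1.15 and 1.10), and Per1 and the metallothionein Mt2 lower (−0.54 and −2.27), where 18.4% of all tested genes were higher and 2.77% lower. Under the 4 other scalings Dusp1 had such a p in 1 and Hsd11b2 in 0. Dusp1 lay apart between the genotypes, while Hsd11b2, Per1 and Mt2 overlapped. Mt1, a second metallothionein of the list named after its values were seen, had a log2 fold change of 0.70 and overlapping groups. Fkbp5 and Tsc22d3, which glucocorticoids are known to induce strongly, had log2 fold changes of 0.13 and 0.06 and overlapping groups, and were chosen after their values were seen. Of 14 immediate early genes 11 were tested and none passed, while 5 were higher at an unadjusted limma p under 0.05, where 18.4% of all tested genes were. Egr1, a zinc finger factor, stood at 21.33, 19.09 and 8.72 TPM in libraries labelled TLR4ΔIEC, against 3.52, 1.79 and 2.53 TPM in WT libraries, with a log2 fold change of 2.20 (adjusted p = 0.0800 in limma, SE 0.35). Jun, Junb, Ier2 and Dusp1 had log2 fold changes of 1.10, 0.97, 0.95 and 1.15. The median of this list was 0.95, beside 0.16 for all tested genes.

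Markers of position along the intestine and of some cell types lay apart between the genotypes too, where 24.1% of all tested genes were apart and higher and 3.53% apart and lower. The summed level of 7 proximal markers was 29.3 to 113.1 TPM in libraries labelled TLR4ΔIEC and 174.8 to 924.3 TPM in WT libraries. Of these genes 5 were apart and lower and 1 apart and higher, and Fabp1 gave most of the sum in WT libraries. Of the 6 proximal markers tested, 2 passed an adjusted p of 0.05 in limma, where 0.119% of all tested genes did. No marker of the other lists below passed it. The summed level of 7 ileal markers was 11116 to 36883 TPM in libraries labelled TLR4ΔIEC and 3375 to 8263 TPM in WT libraries. Of these genes 6 were apart and higher, and Fgf15 overlapped. Fabp6 gave most of that sum in each library, at 9526 to 34630 TPM in TLR4ΔIEC and 2352 to 7321 TPM in WT. The 8 Paneth cell markers summed to 13867 to 53154 TPM in libraries labelled TLR4ΔIEC and 76520 to 86557 TPM in WT libraries, 7 of them apart and lower, and TLR4ΔIEC replicate 1 was the highest of its group. The 8 epithelial markers summed to 11001 to 14630 TPM in libraries labelled TLR4ΔIEC and 8692 to 9232 TPM in WT libraries. The sums of all remaining marker lists overlapped between the genotypes. TLR4ΔIEC replicate 2 was the lowest of the 6 libraries in each of them and in the Paneth sum, and the highest in the epithelial sum. That library also had the lowest Dbp, Nr1d1 and Nr1d2. Smooth muscle markers summed to 306.5 to 998.0 TPM in libraries labelled TLR4ΔIEC and 417.4 to 1021 TPM in WT libraries. Fibroblast markers summed to 48.5 to 245.8 TPM in libraries labelled TLR4ΔIEC and 130.2 to 211.9 TPM in WT libraries, and endothelial markers to 22.0 to 41.4 TPM in libraries labelled TLR4ΔIEC and 33.5 to 47.4 TPM in WT libraries. Markers of enteric neurons and glia summed to 4.38 to 10.3 TPM in libraries labelled TLR4ΔIEC and 6.79 to 13.2 TPM in WT libraries, and leukocyte markers to 39.5 to 231.1 TPM in libraries labelled TLR4ΔIEC and 121.3 to 167.4 TPM in WT libraries. The lists of these 5 cell types held no gene whose groups were apart. The 6 markers of group 3 innate lymphoid and Th17 cells, which include Il22 and Il17a, summed to 0.35 to 2.06 TPM in libraries labelled TLR4ΔIEC and 1.28 to 3.03 TPM in WT libraries, which overlap. No list had a marker at 0 in all 6 libraries. The part of these markers in the clock gene differences was not tested, and in bulk tissue fewer cells of a type and less RNA per cell cannot be told apart.

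Genes with a pattern nearest to 2 of the members were sought among 8584 named non-member genes that averaged 5 TPM or more. Nearness was the mean absolute difference of centred log2(TPM + 1) over the 6 libraries. Nearest to Arntl were Mettl7b (mean difference 0.13), Slc34a2 (0.14), Ces1f (0.19), Aoc1 (0.22) and Naip1 (0.23), all nearer than the nearest clock member, Nfil3 (0.27). Slc34a2, a phosphate transporter, stood at 154.5, 235.6 and 283.8 TPM in libraries labelled TLR4ΔIEC, against 135.6, 51.7 and 67.9 TPM in WT libraries, with WT replicate 1 highest in its group as for Arntl. Nearest to Dbp were Ighv1-64 (0.17), Igkv3-12 (0.21), Clps (0.23), Ighv5-6 (0.24) and Defa26 (0.24), which are immunoglobulin segments, the colipase gene and a Paneth cell defensin. The nearest clock member to Dbp was Nr1d1 (0.56). The likeness is a description over 6 libraries.

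**Figure D5:**
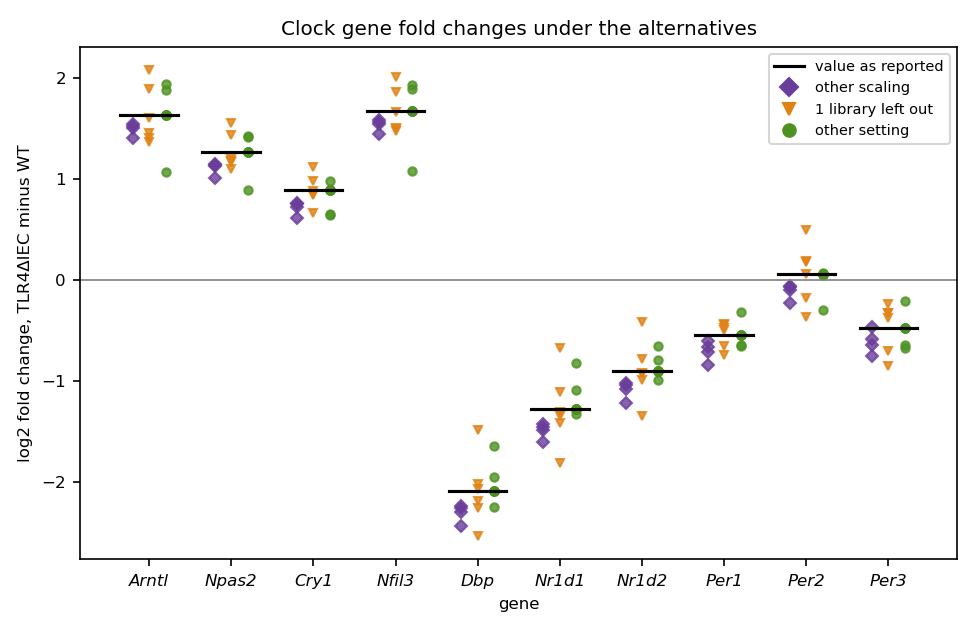
Log2 fold change of each clock gene, TLR4ΔIEC minus WT (vertical axis), as reported (black bar) and under the alternatives, with other scalings as diamonds, 1 library left out as triangles and other settings as circles. Arntl, Npas2, Cry1 and Nfil3 stay above 0 and Dbp, Nr1d1, Nr1d2, Per1 and Per3 below 0 in every alternative shown, and Per2 lies on both sides.

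Under the 18 alternatives Arntl, Npas2, Cry1, Nfil3 and Dbp kept their direction and an unadjusted limma p under 0.05 in each. The log2 fold change ran from 1.08 to 2.08 for Arntl, from 0.89 to 1.55 for Npas2, from 0.62 to 1.12 for Cry1, from 1.08 to 2.01 for Nfil3 and from −2.53 to −1.49 for Dbp. Nr1d1 had such a p in 9 of 18 alternatives, Nr1d2 in 5 of 18, Per1 in 10 of 17, Per3 in 1 of 17 and Per2 in none of 18. Without TLR4ΔIEC replicate 1 the values of Npas2, Nfil3 and Dbp passed the adjusted threshold (limma adjusted p = 0.0355, 0.0289 and 0.0450), where 367 of 13379 tested genes passed.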

How the data were processed

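Values are the TPM per gene and library that the authors deposited. The submitters' processing notes list the tools fastp, RSEM and HISAT, with no versions, and the build GRCm38.p5. No source used here says whether strand was used in counting, and TPM holds no read totals. Columns were matched to samples by the codes in the sample titles, which also give group and replicate. The authors' group means were not used.

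The 13458 genes averaging 1 TPM or more were tested in R 4.3.3 by limma 3.58.1 on values of log2(TPM + 1) (lmFit, eBayes with trend, two-sided, genotype as the single term, Benjamini-Hochberg adjustment over all genes tested at 0.05). The pseudocount of 1 TPM makes fold changes of weakly expressed genes too small. Single values had exact permutation tests.

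The members and lists were chosen with earlier results of these data known. Named genes are Tlr4, the 10 members, list genes under an unadjusted p of 0.05 (or, with fewer than 2, the 2 most abundant) and the 5 genes nearest to Arntl and Dbp. Others were chosen after their values were seen. An item withheld from the lists is not reported here. Coordinates are from GENCODE M21 and promoters from RefSeq (GRCm38.p6). The motifs are textbook clock sites. Alternatives were 4 other scalings, a filter at 5 TPM or none, a pseudocount of 0.1 or 5 TPM, 3 variance models, a replicate block and each library left out. All 6 libraries were used, and p-values measure the spread between these mice. Figures were drawn with matplotlib 3.10.9.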

Additional observations from a re-analysis of the deposited data

How the results depend on the processing

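The number of genes past the threshold (16) was 0 with no filter (limma, 3377 genes with an unadjusted p under 0.05), 7 with a filter at 5 TPM, 10 with alpha-defensin, mitochondrial, Rn18s, Cmss1 and Gphn genes left out of the scaling, and 136 with array weights. It ranged from 0 to 367 with 1 library left out, being 0 without TLR4ΔIEC replicate 2 (limma, 2651 genes at an unadjusted p under 0.05) or WT replicate 2 (1681) and 5, 32, 3 and 367 without TLR4ΔIEC replicate 3, WT replicate 1, WT replicate 3 and TLR4ΔIEC replicate 1, in that order. The number of clock members past it (0, with 7 at an unadjusted limma p under 0.05) was 1 with array weights, Nfil3, and ranged from 0 to 3 with 1 library left out. The number of members at an unadjusted p under 0.05 was 5 to 8 under all 18 alternatives, while the share of all tested genes at that p ran from 11.8% to 28.0%. With the replicate number as a block 1 gene and 0 members passed, with 6 members at an unadjusted limma p under 0.05. Deviations of same-numbered libraries correlated at −0.04, 0.04 and 0.12, and those of differently numbered libraries at −0.15 to 0.11. With 3 libraries per group these values cannot show whether mice were paired. The main fit did not pair them, because the replicate numbers name no shared animal. The fold change of Per2 turned to −0.065 under median-of-ratios scaling, −0.054 under quantile normalization, −0.10 without the 20 highest genes, −0.23 without the alpha-defensin and other genes named above and −0.29 with array weights, and ranged from −0.36 to 0.49 with 1 library left out. That of Rbm3 ranged from −0.20 to 0.032 with 1 library left out. The adjusted p of Apoa4 was 0.0529 without a trend, 0.0586 with the block and 0.114 with no filter. The cause of these changes was not tested. With the filter at 5 TPM, Per1 and Per3 had no value.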

Other observations

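Arntl2, a relative of Arntl that was below the filter, stood at 0.46, 0.10 and 0.42 TPM in libraries labelled TLR4ΔIEC, against 2.32, 0.22 and 2.21 TPM in WT libraries, so it overlapped between the genotypes. Both this gene and the next were chosen after their values were seen. Nampt, the rate-limiting enzyme of NAD salvage and a clock output, stood at 52.25 TPM in TLR4ΔIEC replicate 1, against 22.02 and 18.03 TPM in TLR4ΔIEC replicates 2 and 3 and 16.93 to 19.58 TPM in WT libraries.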
